A study of Mus musculus with 25 samples.

Results

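The BCL2 family and the adjoining Bcl2l11-Acoxl locus were examined for chromatin accessibility in fetus/graft-specific CD8+ T cells (T_FGS). The 10 genes were Bcl2, Bcl2l1, Mcl1, Bcl2l11, Bbc3, Pmaip1, Bid, Bax, Bak1 and Acoxl. A peak was counted to a gene where its midpoint had that gene's start as the nearest protein-coding start (GENCODE vM39, GRCm39) or lay in the body of that gene. This rule took 24 of the 13527 peaks of the deposited count table, 4 of them through a gene body alone. The peaks were chosen by position and by having been called in at least 1 group, and no fold change entered the rule. However, 5 of the 24 (Bcl2 +101.5 kb, Acoxl +83.3 kb, Bcl2l1 +5.7 kb, Bid -17.2 kb and Bbc3 -8.6 kb, named by distance in kb from the gene start) entered the table through the peak list of 1 group alone, in 5 of 5 the group with the highest mean. Of 7 peaks admitted through the lists of 2 groups alone, 5 (Acoxl +89.1 kb, Bcl2l1 +43.9 kb, Bcl2l1 +42.3 kb, the Mcl1 promoter and Pmaip1 +12.8 kb) had their highest mean in 1 of those groups. The differences of these 10 peaks from the admitting groups are therefore descriptions of peaks admitted by a high value there, not independent tests. The same limit holds for a peak in more lists wherever a listed group is compared with an unlisted one. The genes themselves were chosen with earlier results of these data known, so the calls below are given as descriptions.

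T_FGS were sorted with OVA:Kb tetramers from spleen and lymph nodes of young adult female C57BL/6 (H-2b) mice, and the cell suspensions were made from individual mice. Naive females (3 libraries) had neither a graft nor a mating. Sensitized females (4 libraries) had rejected skin of male 2W-OVA.BALB/c (H-2d) mice about a month or more earlier. Naive females mated with 2W-OVA.BALB/c males gave the N+P groups, and sensitized females mated in the same way gave the S+P groups, all taken within days of delivery. In every group the antigen tracked was OVA, which the paternal strain expresses constitutively from its Act-2W-OVA transgene. N+P cells were sorted into C1 (PD1-) and C5 (PD1+CD73+), with 3 libraries each. S+P cells were sorted into C4 (PD1-), C5 (PD1+CD73+) and C7 (PD1+CD73-), with 4 libraries each.

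BCL2 family proteins decide whether a cell commits to death through its mitochondria. Pro-survival members (BCL2, BCL-XL from Bcl2l1, MCL1) hold the pore-forming effectors BAX and BAK in check, and BH3-only members (BIM from Bcl2l11, PUMA from Bbc3, NOXA from Pmaip1, BID) release or activate those effectors. In CD8+ T cells, BIM is a known mediator of the contraction that follows a response, BCL2 supports naive and memory cells, and BCL-XL is raised in activated cells. Acoxl, an acyl-CoA oxidase-like gene, lies immediately upstream of Bcl2l11 in the same orientation.

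The 25 libraries held between 2430890 and 25419715 counts in peaks, and the shallowest (S+P C4 replicate 1) and the deepest (S+P C5 replicate 1) carry the same replicate number. Cell identity was read at promoters: 6 of 7 T and CD8 T cell genes had a promoter peak, whereas no gene of the CD4 T, B, myeloid, NK or erythroid lists had one. Naive replicate 3 and S+P C4 replicate 1 stood apart from the other libraries of their groups, whereas the Sensitized libraries split into pairs. Replicates 3 and 4 were the most alike (chi-square per degree of freedom 5.07) and replicates 1 and 2 less so (22.2), with 31.2 to 69.65 across pairs. Neither pair is marked as the one apart, and a fit without replicates 1 and 2 together was not run. Sensitized replicates 3 and 4, Naive replicate 3 and S+P C4 replicate 1 are called the libraries that stood apart. Each called difference of a member peak in a comparison that used them is also given without them. Of the differences that passed the adjusted p at any fold, 12 of 12 passed again without these libraries for Sensitized against Naive, 11 of 14 for S+P C7 against Sensitized, 1 of 14 for S+P C5 against Sensitized, 1 of 4 for S+P C4 against Sensitized, 4 of 6 for S+P C5 against S+P C4 and 3 of 4 for the interaction defined below. At Acoxl +89.1 kb, Bcl2l1 +43.9 kb, Bcl2l1 +5.7 kb and Bid -17.2 kb, Sensitized replicates 3 and 4 lay nearer to the Naive values than replicates 1 and 2 did.

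Values are normalized counts, that is, reads in a peak divided by the DESeq2 size factor of the library. Differences are log2 fold changes ± SE from 1 DESeq2 fit over all 13527 peaks and 25 libraries, with p-values adjusted by the Benjamini-Hochberg method over all peaks. A peak was called higher or lower where the adjusted p was below 0.1 and the log2 fold change exceeded 0.9 in size. Peaks are named by the gene and the distance of the midpoint downstream (+) or upstream (-) of its start, and a promoter peak lay within 1000 bp of a protein-coding transcript start.

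The called intronic peaks are shown first, among them the 1 with the largest difference of all 24, whereas the called Bid -17.2 kb peak lies in a UTR and the called Bcl2 +198.6 kb peak between genes. Each sequence is the central 300 bases of a peak on the + strand of GRCm39, and none of these windows touched an annotated exon. Capitals mark matches, on either strand, to NFAT (TGGAAA), RUNX (TGTGGT), TCF1/LEF1 (CTTTGA), ETS (CCGGAA), STAT (TTCNNNGAA) or the p53 half-site. In the Acoxl +89.1 kb window the TCF1/LEF1 and STAT matches overlap.
Bcl2 +26.1 kb, chr1:106615793-106616092: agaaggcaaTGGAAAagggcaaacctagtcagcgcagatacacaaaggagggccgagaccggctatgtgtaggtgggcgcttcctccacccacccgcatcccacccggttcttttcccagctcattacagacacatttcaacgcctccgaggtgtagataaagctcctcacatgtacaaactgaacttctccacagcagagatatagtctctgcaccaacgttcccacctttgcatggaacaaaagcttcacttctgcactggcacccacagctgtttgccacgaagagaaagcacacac
Acoxl +83.3 kb, chr2:127763970-127764269: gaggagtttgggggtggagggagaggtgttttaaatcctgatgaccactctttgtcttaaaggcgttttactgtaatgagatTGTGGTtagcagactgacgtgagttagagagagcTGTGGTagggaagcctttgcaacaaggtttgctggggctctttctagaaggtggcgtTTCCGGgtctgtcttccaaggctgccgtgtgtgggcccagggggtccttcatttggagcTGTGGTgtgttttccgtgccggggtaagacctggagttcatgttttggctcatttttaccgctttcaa
Acoxl +89.1 kb, chr2:127769731-127770030: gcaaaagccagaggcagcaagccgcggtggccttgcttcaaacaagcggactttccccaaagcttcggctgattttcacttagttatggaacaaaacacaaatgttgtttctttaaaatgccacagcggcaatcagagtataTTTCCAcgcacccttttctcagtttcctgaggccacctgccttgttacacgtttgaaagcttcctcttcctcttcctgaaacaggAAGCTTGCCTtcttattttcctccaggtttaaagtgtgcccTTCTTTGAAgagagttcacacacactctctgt
Bcl2l1 +43.9 kb, chr2:152629613-152629912: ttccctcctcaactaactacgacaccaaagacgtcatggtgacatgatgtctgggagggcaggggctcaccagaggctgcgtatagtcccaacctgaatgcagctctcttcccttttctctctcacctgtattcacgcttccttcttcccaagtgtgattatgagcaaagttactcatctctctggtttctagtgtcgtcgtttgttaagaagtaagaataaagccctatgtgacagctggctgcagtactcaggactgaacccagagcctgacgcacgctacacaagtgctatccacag
Bcl2l1 +5.7 kb, chr2:152667793-152668092: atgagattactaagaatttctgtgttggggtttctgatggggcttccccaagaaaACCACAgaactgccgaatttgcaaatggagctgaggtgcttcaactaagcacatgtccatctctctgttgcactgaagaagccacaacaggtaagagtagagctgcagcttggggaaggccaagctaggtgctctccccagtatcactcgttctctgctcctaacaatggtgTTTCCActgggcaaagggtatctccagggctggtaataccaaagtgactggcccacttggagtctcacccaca
The Acoxl +83.3 kb window held RUNX letters 3 times and ETS letters once. The Acoxl +89.1 kb window held NFAT, STAT, TCF1/LEF1 and p53 half-site letters, the Bcl2 +26.1 kb window NFAT letters alone, and the Bcl2l1 +5.7 kb window NFAT and RUNX letters. None of the motifs searched was in the Bcl2l1 +43.9 kb window. These letters are common: over the central 300 bases of all peaks off promoters, RUNX letters were in 40.6%, NFAT letters in 25.5%, TCF1/LEF1 letters in 25.5%, STAT letters in 10.2%, the p53 half-site in 9.94% and ETS letters in 9.12%.

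Of the 24 peaks, 7 were called in at least 1 of 11 comparisons, beside 22.0% of all peaks, and 17 in none. All 7 lay off promoters, where 7 of 16 were called beside 44.3% of all peaks off promoters. None of the 8 promoter peaks was called by DESeq2 or by edgeR, beside 4.95% of all promoter peaks, although all 8 had an unadjusted p below 0.05 in at least 1 comparison. The largest fitted difference at any of them was 0.49 on the log2 scale. Off promoters the share called was at the background. The heatmap of all 24 peaks sets each group against Naive. Its largest values were in sensitized groups, but Mcl1 +14.3 kb (-0.52), Bcl2 +66.8 kb (-0.48) and Bbc3 -8.6 kb (-0.48) were farther from Naive in N+P C1 than in Sensitized (0.00, -0.19 and -0.38).

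**Figure D1:**
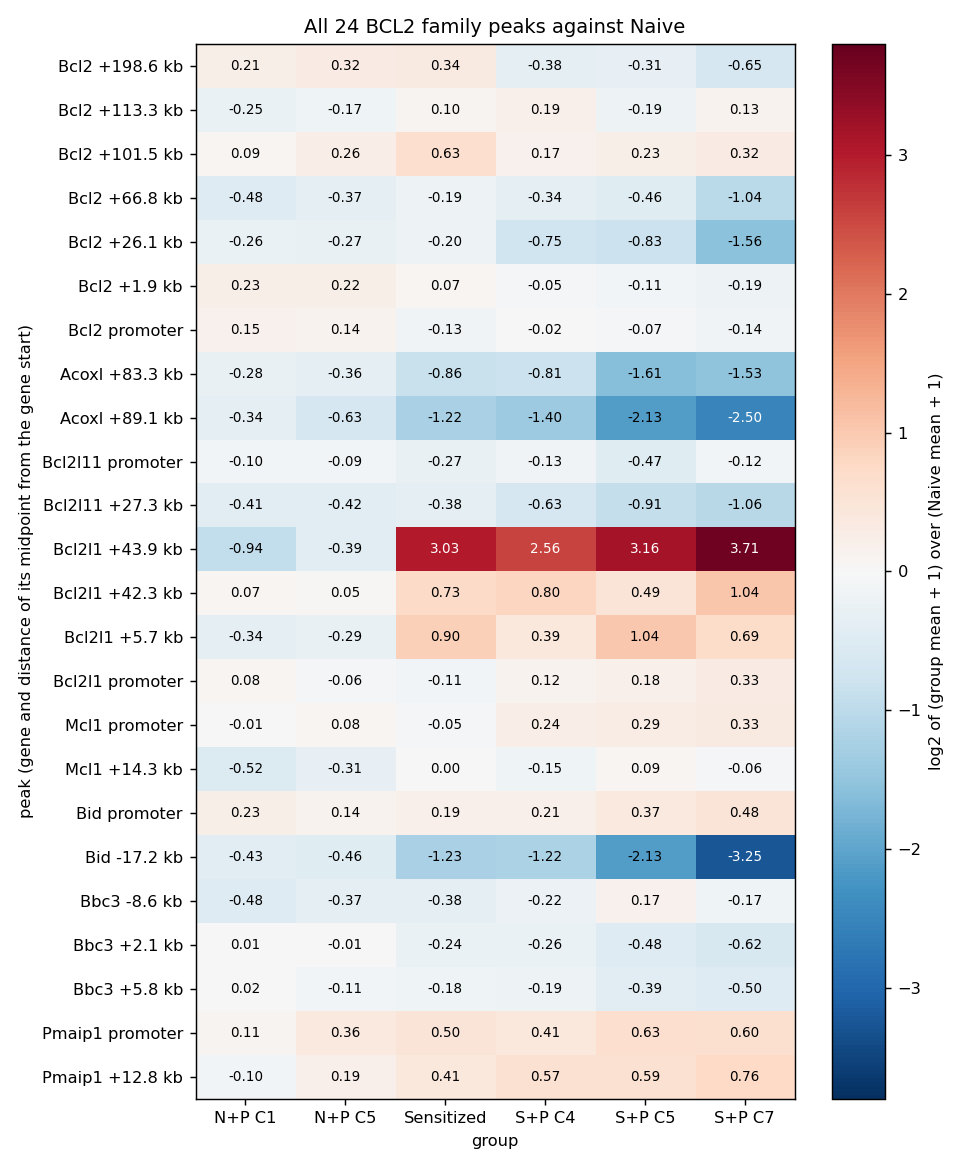
Heatmap of the 24 peaks (vertical axis) in the 6 groups other than Naive (horizontal axis), coloured by the log2 ratio of the group mean to the Naive mean of normalized counts, each plus 1. Bcl2l1 +43.9 kb reached 3.71 in S+P C7 and Bid -17.2 kb reached -3.25 in the same group, while promoter peaks stayed within -0.62 and 0.63.

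Sensitized against Naive gave 4 called peaks beside 8.62% of all peaks, 2 higher (7.22% of all) and 2 lower (1.4%). At any fold, 12 of the 24 passed the adjusted p (20.5% of all), and in 13 the libraries of the groups did not overlap (22.7%). Against Sensitized, S+P C7 had 4 called peaks, all of them lower, beside 11.9% called and 8.03% called lower among all peaks. Here 14 passed the adjusted p at any fold (52.9%), and 12 did not overlap (25.5%).

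Against N+P C5, S+P C5 had 5 called peaks beside 17.2%, with 2 higher (10.3%) and 3 lower (6.97%). At any fold 18 passed the adjusted p (63.8%), and 17 did not overlap (62.9%). The contrast of C7 with C5 in S+P animals held 1 called peak, which was lower, beside 2.38% called and 2.11% called lower. In that contrast 6 passed the adjusted p at any fold (8.93%), and 5 did not overlap (11.5%).

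The remaining comparisons of 2 groups gave no call in DESeq2 and none in edgeR. For N+P C1 against Naive, DESeq2's filter on low counts left 8 of the 24 peaks to be tested, with 0.0205% of all peaks called. Of these 8, 2 passed the adjusted p at any fold (11.9% of all), and 5 of the 24 had an unadjusted p below 0.05. In 11 of the 24 the libraries of the groups did not overlap (27.0% of all). For N+P C5 against Naive 4 peaks were tested (0.0262% called, 7.87% at any fold), none passed, 4 of the 24 had an unadjusted p below 0.05, and 12 did not overlap (26.2%). Between the N+P subsets the background was 0.0% by either rule, 0 peaks had an unadjusted p below 0.05, and 5 did not overlap (11.1%).

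Against Sensitized, S+P C4 had a background of 0.858%, and 4 peaks passed at any fold (6.54%), with 6 at an unadjusted p below 0.05 and 2 that did not overlap (3.96%). For S+P C5 against Sensitized the background was 6.74%. There 14 of the 24 passed the adjusted p at any fold, beside 32.9% of all peaks, and the same number had an unadjusted p below 0.05, but none exceeded the fold threshold, and 7 did not overlap (14.7%). The contrast of C5 with C4 in S+P animals had a background of 5.12%, and 6 passed at any fold (13.3%), with 8 at an unadjusted p below 0.05 and 5 that did not overlap (11.7%).

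**Figure D2:**
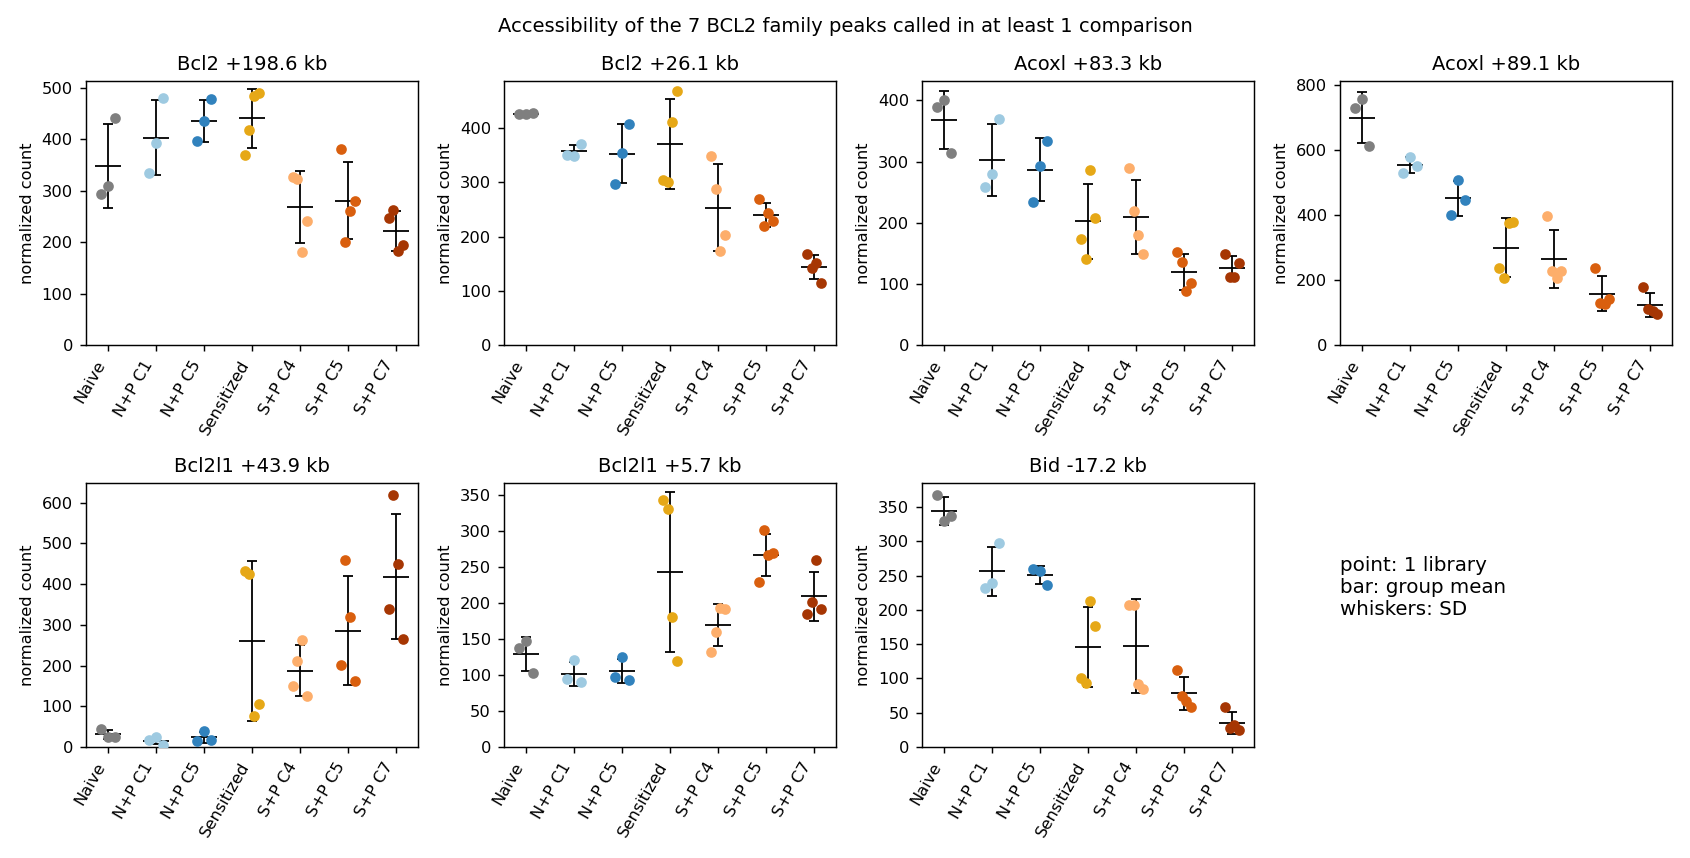
Normalized counts (vertical axis, linear from 0) of the 7 called peaks by group (horizontal axis), with 1 point per library, bars at the group mean and whiskers of 1 SD. Acoxl +89.1 kb ran from a mean of 699.6 in Naive to 123 in S+P C7, Bid -17.2 kb from 345 to 35.4, and Bcl2l1 +43.9 kb in the other direction from 31.0 to 418.

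Bcl2, the pro-survival gene that supports naive and memory T cells, had 7 peaks, 6 from its promoter to +113.3 kb within the gene (chr1:106465908-106642060, minus strand) and 1 beyond its 3' end. The largest difference was that of S+P C7 against Sensitized at the intronic +26.1 kb peak (chr1:106615560-106616326). This peak was in the Naive, N+P C1, N+P C5 and Sensitized lists and in no S+P list. There, Naive libraries had 424, 426 and 428 normalized counts, N+P C1 351, 349 and 369, and N+P C5 297, 354 and 406. Sensitized libraries had 305, 299.7, 409.9 and 468, S+P C4 347, 288, 173 and 203, S+P C5 269, 219, 244 and 228, and S+P C7 168, 141, 151 and 115. Every S+P C7 library was below every library of the other 6 groups, and every N+P library was below the 3 closely spaced Naive values. S+P C7 was lower than Sensitized by -1.37 ± 0.19 (adjusted p = 2.7e-11), and by -1.07 (adjusted p = 5.89e-07) without the libraries that stood apart. A difference in accessibility per cell and a difference in the share of cells with the site open cannot be told apart in these sorted populations. S+P C4 and S+P C5 were also below Sensitized, by -0.59 ± 0.19 (adjusted p = 0.0494) and -0.62 ± 0.18 (adjusted p = 0.00622), under the fold threshold, and neither passed the adjusted p without the libraries that stood apart (-0.45 and -0.32, adjusted p = 0.196 and 0.284). S+P C7 was also below S+P C5 by -0.75 ± 0.19 (adjusted p = 0.00413), under the fold threshold.

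The Bcl2 +198.6 kb peak (chr1:106443131-106443880, intergenic, past the 3' end of the gene) had 370.3, 418, 484 and 489 normalized counts in Sensitized libraries. Its S+P C7 values were 247, 262, 182 and 195, its S+P C5 values 381, 201, 261 and 279.9, and its S+P C4 values 327, 323, 181 and 242. N+P C5 libraries had 396, 434 and 477, N+P C1 libraries 335, 394 and 480, and Naive libraries 293, 309.8 and 442. The peak was in the lists of N+P C1, N+P C5, Sensitized and S+P C5, and not in that of S+P C7. Sensitized overlapped neither S+P C7 nor S+P C4, whereas Naive and N+P C5 overlapped. S+P C7 was lower than Sensitized by -0.99 ± 0.20 (adjusted p = 1.38e-05), but by -0.83 (adjusted p = 0.00334) and not called without the libraries that stood apart. S+P C4 was lower than Sensitized by -0.73 ± 0.21 (adjusted p = 0.0219), under the fold threshold, and by -0.66 (adjusted p = 0.103) without those libraries. S+P C5 was lower by -0.64 ± 0.20 (adjusted p = 0.0123), and by -0.47 (adjusted p = 0.192) without them.

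This was also the 1 peak of the 24 called in the interaction, which asks whether S+P C5 against Sensitized differs from N+P C5 against Naive (5.97% of all peaks called, 2.93% called lower, and 31.2% at any fold, where 4 of the 24 passed). The fitted changes were -0.64 in sensitized and 0.32 in naive animals, a difference of -0.96 ± 0.31 (adjusted p = 0.0215), still called without the libraries that stood apart (adjusted p = 0.0285). The call was lost when Naive replicate 1 was left out (-0.85), and likewise for Naive replicate 2 (-0.88), replicate 3 of N+P C5 (-0.89), replicate 2 of S+P C5 (-0.83) and Sensitized replicate 4 (-0.90).

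Of the other Bcl2 peaks, the intronic +66.8 kb peak was nearest to a call. It was in the Sensitized list but not in that of S+P C7. Sensitized libraries had 380.1, 439, 429 and 452 normalized counts and S+P C7 libraries 266, 237, 222 and 221, without overlap. The difference was -0.84 ± 0.15 (adjusted p = 3.69e-07), just under the fold threshold. The +113.3 kb peak went a different way, with 500.2 to 572 in S+P C5 against 639 to 806 in S+P C4 and 625 to 734 in S+P C7. Its fitted differences were -0.37 ± 0.10 for S+P C5 against S+P C4 (adjusted p = 0.00693) and 0.32 ± 0.10 for S+P C7 against S+P C5 (adjusted p = 0.0325). The Bcl2 promoter itself ranged only from 678 to 952 over the 25 libraries.

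**Figure D3:**
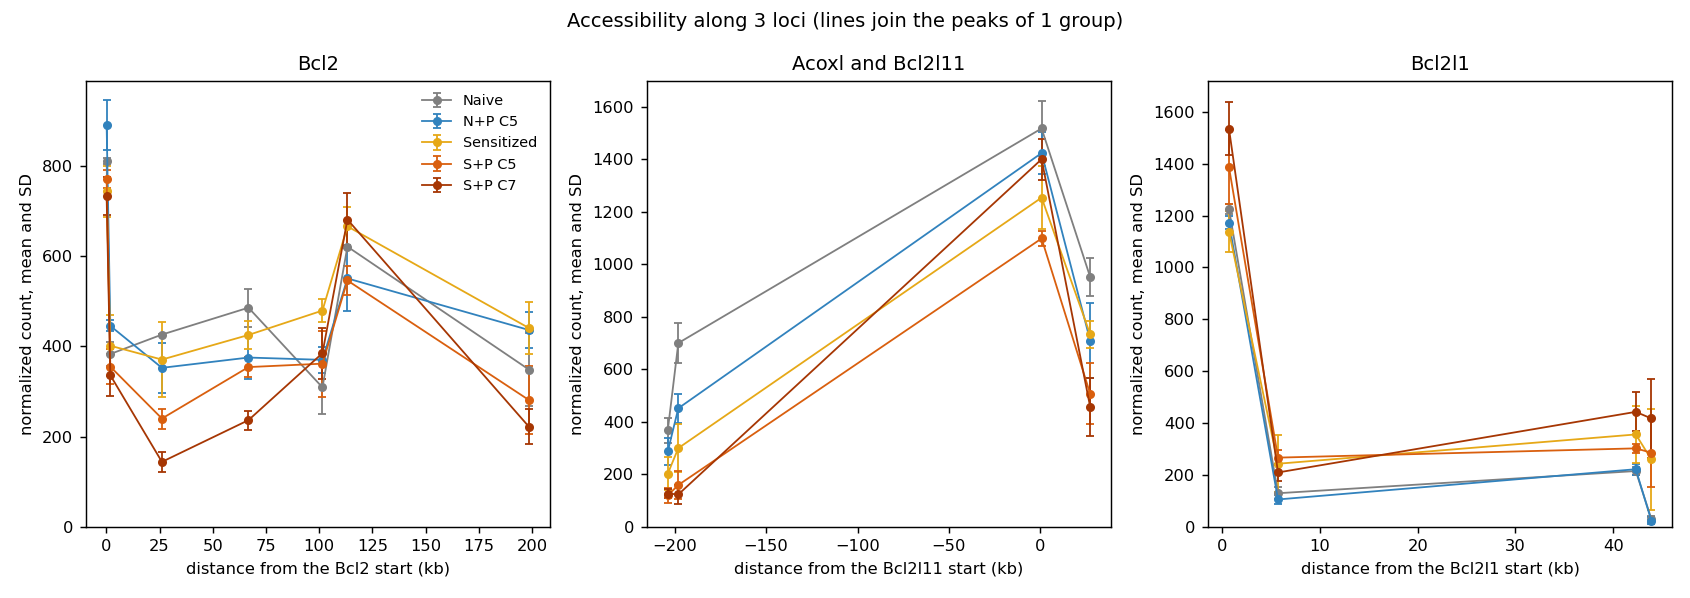
Normalized counts (vertical axes, mean with whiskers of 1 SD) of the peaks at Bcl2, Acoxl and Bcl2l11, and Bcl2l1, against distance from the gene start in kb (horizontal axes), with 1 line per group for 5 groups. Within Bcl2, S+P C7 lay lowest at +26.1 kb (mean 144), and at Bcl2l1 the naive groups lay near 0 at +43.9 kb (means 31.0 and 23.4) while at its promoter Naive and N+P C5 (means 1225 and 1172) lay between Sensitized (1138) and S+P C5 (1387).

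Bcl2l1, the source of pro-survival BCL-XL, had 4 peaks, and the farthest from its start gave the largest difference of the 24. Bcl2l1 +43.9 kb (chr2:152629465-152630062) lies in a Bcl2l1 intron, and its nearest protein-coding start is that of Cox4i2. Naive libraries had 44.1, 23.6 and 25.2 normalized counts, N+P C1 17.7, 23.6 and 5.65, and N+P C5 15.1, 38.4 and 16.8. These rest on 3 to 40 raw counts per library. Sensitized libraries had 433, 425, 75.1 and 106, S+P C4 149.7, 212, 263 and 126, S+P C5 201, 459, 320.3 and 162, and S+P C7 339, 618, 449 and 264. No library from a sensitized animal overlapped the 9 libraries from animals that had never been grafted, and within Sensitized, replicates 1 and 2 were far above replicates 3 and 4.

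The peak was higher in Sensitized than in Naive by 3.08 ± 0.53 (adjusted p = 2.65e-07), and by 3.67 (adjusted p = 2.26e-11) without the libraries that stood apart. It was higher in S+P C5 than in N+P C5 by 3.62 ± 0.55 (adjusted p = 7.73e-10). With loess offsets, which scale each library as a function of the mean level, these differences were 1.65 (adjusted p = 0.00253) and 1.54 (adjusted p = 0.00255), still called. S+P C5 against Sensitized gave 0.13 (95% interval -0.80 to 1.07), too wide to exclude a change of the called size. The deposited lists of reproducible peaks carried this region in S+P C5 and S+P C7 alone, although Sensitized replicates 1 and 2 had counts as high.

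A second intronic Bcl2l1 peak, at +5.7 kb (chr2:152667681-152668206), admitted through the S+P C5 list alone, had 138, 148 and 103 normalized counts in Naive and 97.6, 125 and 93.8 in N+P C5. Sensitized libraries had 343, 330.3, 180.0 and 119, and S+P C5 libraries 229, 302, 266 and 269. N+P C1 libraries had 94.0, 121 and 90.4, S+P C4 133, 160, 194 and 192, and S+P C7 185, 201, 260 and 191. S+P C5 lay wholly above N+P C5, while Sensitized replicate 4 and S+P C4 replicate 1 fell inside the Naive range. Sensitized was higher than Naive by 0.91 ± 0.28 (adjusted p = 0.0098), a call at the threshold. It was lost with loess offsets (0.60), with only the 2 groups in the fit (adjusted p = 0.134), and when Naive replicate 3 (0.76) or Sensitized replicate 1 (0.70) or 2 (0.73) was left out. Without the libraries that stood apart it was 1.23 (adjusted p = 1.64e-07). S+P C5 was higher than N+P C5 by 1.34 ± 0.28 (adjusted p = 1.65e-05), which was 0.69 and not called with loess offsets.

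Next to the +43.9 kb peak, Bcl2l1 +42.3 kb had 196 to 226 normalized counts in Naive and 257 to 504 in Sensitized. Sensitized exceeded Naive by 0.73 ± 0.19 (adjusted p = 0.002), below the fold threshold, and by 1.07 (adjusted p = 2.1e-06, called) without the libraries that stood apart. Averaged over the 25 libraries, the Bcl2l1 promoter was the most open peak of the family per length, with 763 normalized counts per kb. This rank did not hold in every group. In Naive its 716 per kb was below Bid -17.2 kb (888) among others, and in Sensitized its 665 was below Mcl1 +14.3 kb (721). The promoter's values were 1061 to 1238 in Sensitized and 1395 to 1637 in S+P C7, without overlap, a difference of 0.43 ± 0.08 (adjusted p = 3.23e-06) that stayed under the fold threshold.

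Mcl1, whose short-lived product is needed by lymphocytes at most stages, gave no call. Its promoter, admitted through the lists of S+P C5 and S+P C7 alone, had 443 to 511 normalized counts in Naive, 402 to 568 in Sensitized and 599.6 to 625 in S+P C7. S+P C7 exceeded Sensitized by 0.37 ± 0.12 (adjusted p = 0.00716). The intergenic +14.3 kb peak, admitted through the Naive and Sensitized lists alone, had 479 to 526 in N+P C1 and 621 to 794 in Naive. That difference from an admitting group was -0.52 ± 0.17 (adjusted p = 0.0611). Both sizes were under the fold threshold.

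**Figure D4:**
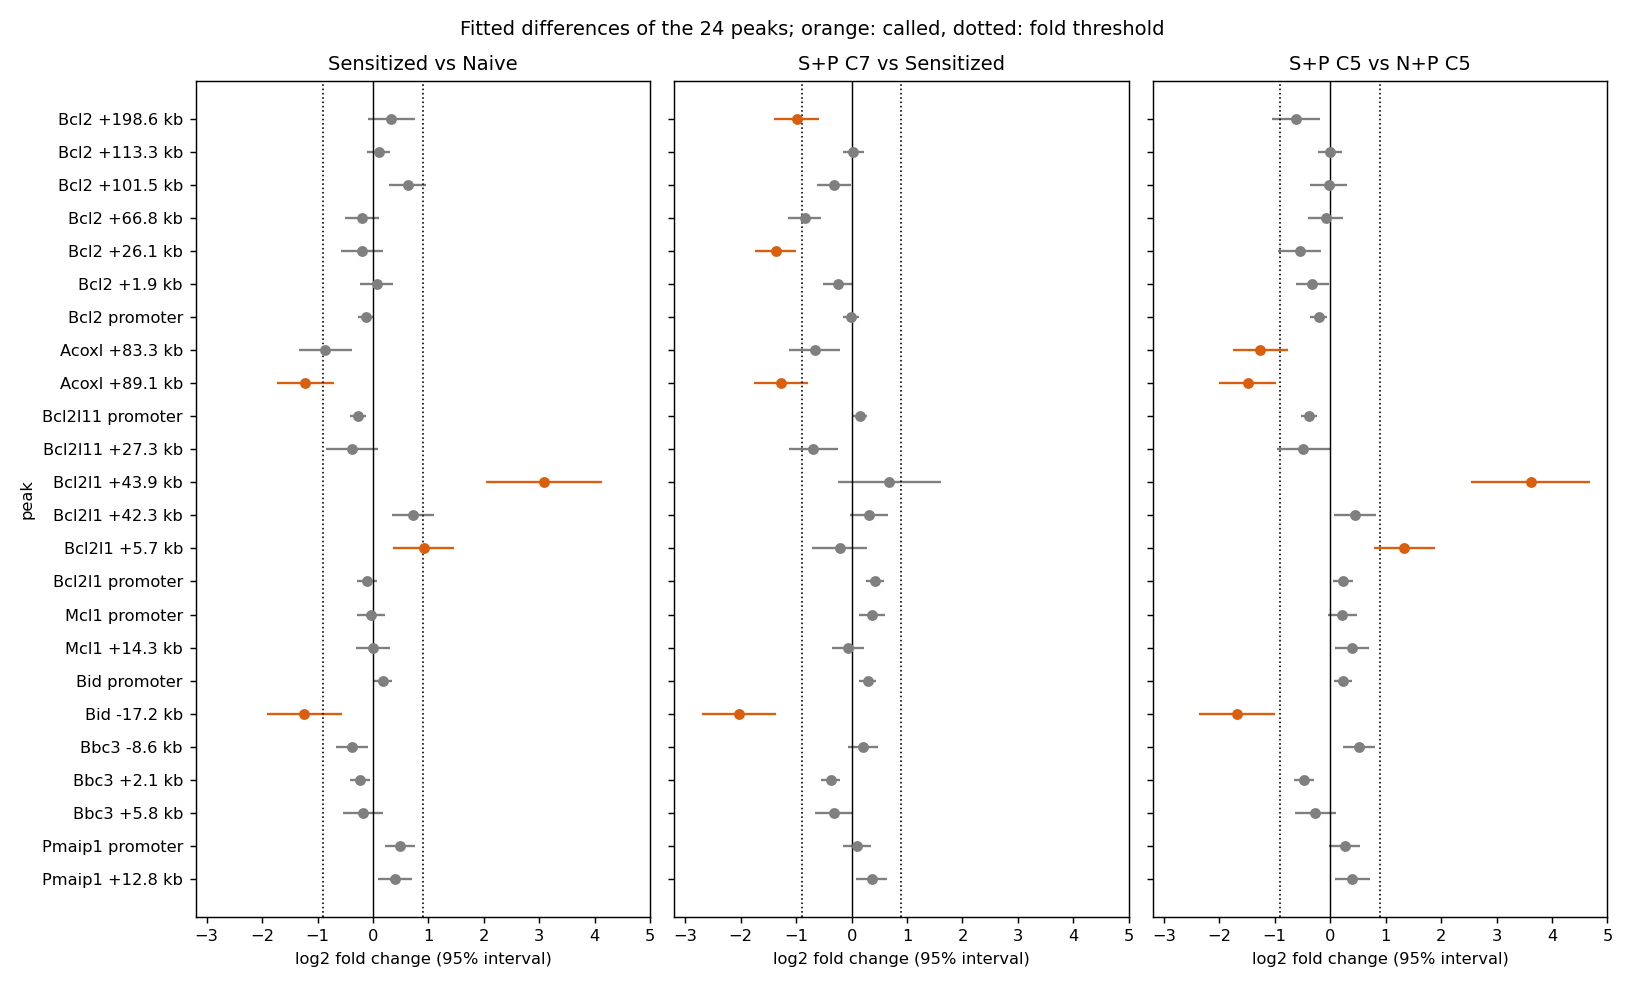
Log2 fold changes (horizontal axes, points with 95% intervals) of the 24 peaks (vertical axis) in 3 comparisons, with called peaks in orange and the fold threshold of 0.9 dotted. All 4 called peaks lay left of 0 in S+P C7 against Sensitized, while the other comparisons held called peaks on both sides, with Bcl2l1 +43.9 kb farthest to the right.

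Bcl2l11 encodes BIM, the BH3-only protein that binds all pro-survival members. The Acoxl and Bcl2l11 peaks differed most in the introns of Acoxl, where the +83.3 kb and +89.1 kb peaks lie 203.8 and 198.1 kb upstream of the Bcl2l11 start. At Acoxl +89.1 kb (chr2:127769405-127770358), admitted through the lists of Naive and N+P C1 alone, Naive libraries had 730.1, 757 and 611 normalized counts, N+P C1 529.8, 579.8 and 550.1, and N+P C5 400.5, 508 and 445. Sensitized libraries had 237, 206, 374 and 380.2, S+P C4 398, 228, 208 and 227, S+P C5 238, 130.1, 126 and 143, and S+P C7 179, 111, 106 and 97.3. Each of the 9 libraries from never-grafted animals was above each of the 16 from sensitized animals, and in all 3 S+P subsets the highest library was replicate 1.

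Acoxl +89.1 kb was lower in Sensitized than in Naive by -1.22 ± 0.26 (adjusted p = 5.31e-05), and by -1.75 (adjusted p = 1.28e-09) without the libraries that stood apart. It was lower in S+P C5 than in N+P C5 by -1.49 ± 0.27 (adjusted p = 2.27e-07). It was lower in S+P C7 than in Sensitized by -1.28 ± 0.25 (adjusted p = 4.34e-06), but by -0.83 (adjusted p = 0.00477) and not called without the libraries that stood apart. S+P C5 against Sensitized gave -0.90 ± 0.25 (adjusted p = 0.00309), at the fold threshold and not called, and -0.96 (adjusted p = 1.52e-06) and called with the replicate number as a block. That block pairs no library with Sensitized and takes the spread between S+P numbers out of the error. Its p can therefore be too small for this contrast. Without the libraries that stood apart, S+P C5 differed from Sensitized by -0.45 (adjusted p = 0.234).

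The neighbouring Acoxl +83.3 kb peak (chr2:127763825-127764416), admitted through the Naive list alone, had 388, 401 and 314 normalized counts in Naive and 233, 293 and 334 in N+P C5. Sensitized libraries had 174, 141, 286 and 208, S+P C5 152, 136, 89.1 and 102, and S+P C7 149, 112, 111 and 135. N+P C1 libraries had 258, 280 and 369, and S+P C4 libraries 289, 219, 179.6 and 149.6. S+P C4 overlapped N+P C5, whereas S+P C5 and N+P C5 did not overlap and differed by -1.26 ± 0.25 (adjusted p = 4.62e-06). Sensitized against Naive gave -0.86 ± 0.25 (adjusted p = 0.00497), under the fold threshold, and -1.33 (adjusted p = 6.73e-06, called) without the libraries that stood apart.

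The Bcl2l11 promoter (chr2:127967357-127970086) followed another order. S+P C5 libraries had 1118, 1113, 1058 and 1102 normalized counts, S+P C4 libraries 1347, 1362, 1443 and 1405, and S+P C7 libraries 1318, 1507, 1397 and 1377. N+P C5 libraries had 1508, 1413 and 1348, and Sensitized libraries 1349, 1079.6, 1319.8 and 1265. S+P C5 lay below all other libraries with the exception of Sensitized replicate 2. The fitted differences were small and passed the adjusted p: -0.34 ± 0.07 for S+P C5 against S+P C4 (adjusted p = 3.86e-05), 0.35 ± 0.07 for S+P C7 against S+P C5 (adjusted p = 7.31e-05) and -0.38 ± 0.07 for S+P C5 against N+P C5 (adjusted p = 3.07e-06). Inside the gene, the +27.3 kb peak had 683 to 792 in Sensitized and 294 to 537 in S+P C7, a difference of -0.69 ± 0.23 (adjusted p = 0.00786) below the fold threshold.

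Bbc3, which encodes PUMA, had 3 peaks and no call. At +2.1 kb, within the promoter distance of a Bbc3 transcript start, values were 1434 to 1512 normalized counts in N+P C5, 1016 to 1109 in S+P C5 and 883 to 1068 in S+P C7. S+P C5 against N+P C5 gave -0.47 ± 0.09 (adjusted p = 4.83e-06). This peak was in the N+P C5 list and in no S+P list. The intergenic Bbc3 -8.6 kb peak, admitted through the S+P C5 list alone, had 209, 196, 198 and 203 in Sensitized and 282, 370.4, 244 and 285 in S+P C5, without overlap, and 292, 266 and 232 in Naive against 229, 203 and 179 in N+P C5. The 2 changes had opposite signs, 0.54 and -0.36, and their difference was 0.89 ± 0.21 (adjusted p = 0.00185), just under the fold threshold. With edgeR it was 0.92 (adjusted p = 0.0224), and called.

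Pmaip1, the source of NOXA, also gave no call. Its promoter had 344 to 502 normalized counts in Naive and 488 to 663 in Sensitized, a difference of 0.49 ± 0.14 (adjusted p = 0.00599). Its intergenic +12.8 kb peak, admitted through the S+P C5 and S+P C7 lists alone, had 357 to 449 in Naive, 419 to 594 in Sensitized and 598 to 828 in S+P C7. S+P C7 exceeded Sensitized by 0.36 ± 0.14 (adjusted p = 0.0286), and by 0.21 (adjusted p = 0.326) without the libraries that stood apart.

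Bid encodes a BH3-only protein that caspase cleavage activates, and the fitted differences of its 2 peaks had opposite signs in S+P C7 against Sensitized. The Bid promoter had 643 to 668 normalized counts in Sensitized and 789.9 to 815 in S+P C7, a difference of 0.29 ± 0.07 (adjusted p = 0.000634) under the fold threshold. The -17.2 kb peak (chr6:120911193-120911580) lies in the UTR of Mical3, a cytoskeletal gene, has Bid as its nearest start, and was admitted through the Naive list alone. Naive libraries had 368, 329 and 336, N+P C1 231, 239 and 298, and N+P C5 259.6, 256 and 236. Sensitized libraries had 100.4, 93.4, 213 and 177, S+P C4 208, 206, 91.9 and 84.9, S+P C5 112, 75.0, 67.3 and 58.2, and S+P C7 58.7, 27.2, 31.5 and 24.2. All libraries from sensitized animals were below those from never-grafted animals, and Sensitized and S+P C4 each split into 2 high and 2 low libraries.

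Bid -17.2 kb was lower in Sensitized than in Naive by -1.24 ± 0.34 (adjusted p = 0.00354), or -1.85 (adjusted p = 2.36e-05) without the libraries that stood apart. S+P C5 was below N+P C5 by -1.67 ± 0.35 (adjusted p = 1.23e-05), which became -3.05 (adjusted p = 3.38e-13) with loess offsets. S+P C7 was below Sensitized by -2.03 ± 0.34 (adjusted p = 7.25e-08), or -1.43 (adjusted p = 0.00104) without the libraries that stood apart. S+P C7 was below S+P C5 by -1.14 ± 0.35 (adjusted p = 0.0238), a call lost without S+P C5 replicate 1 (-0.89, adjusted p = 0.168) or S+P C7 replicate 4 (-0.97, adjusted p = 0.128). S+P C5 against Sensitized gave -0.89 ± 0.32 (adjusted p = 0.031), not called, and -0.94 (adjusted p = 0.00245), called, with the replicate number as a block. The block again pairs no library with Sensitized, so its p can be too small here too. Without the libraries that stood apart, S+P C5 differed from Sensitized by -0.29 (adjusted p = 0.668).

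Bax and Bak1, the pore-forming effectors, had no member peak. The nearest peak to the Bax start was 7287 bp away and was assigned to Ftl1, and the nearest to the Bak1 start was 55851 bp away and was assigned to Zbtb9. This says only that no reproducible peak was called there, not that the promoters are closed.

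The S+P subsets share replicate numbers 1 to 4, which were not stated to mark the same animal, and each peak was also followed across libraries of the same number. Acoxl +89.1 kb was lower in C5 than in C4 in 4 of 4 numbered pairs, by -0.73 on average (range -0.81 to -0.67, log2 of normalized count plus 1), and lower again in C7 than in C5 in 4 of 4, by -0.36 (range -0.55 to -0.23). Bid -17.2 kb was lower in C5 than in C4 by -0.83 (range -1.45 to -0.45) and in C7 than in C5 by -1.16 (range -1.43 to -0.92), both in 4 of 4. Bcl2l1 +43.9 kb was higher in C5 than in C4 by 0.55 (range 0.28 to 1.11) and in C7 than in C5 by 0.59 (range 0.43 to 0.75), both in 4 of 4. Of these 6 steps only that of Bid -17.2 kb from C5 to C7 was called, with or without the replicate number as a block.

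Bcl2l11 +27.3 kb, not called, was also lower at each step in 4 of 4 pairs. The averages were -0.25 from C4 to C5 and -0.15 from C5 to C7. How often all peaks reach 4 of 4 was not computed. The other called peaks ordered the same-numbered libraries differently. Bcl2 +26.1 kb was lower in C7 than in C5 in 4 of 4 pairs, by -0.74 (range -0.98 to -0.63), but lower in C5 than in C4 in 2 of 4. Acoxl +83.3 kb was lower in C5 than in C4 in 4 of 4, by -0.79 on average, and lower in C7 than in C5 in 2 of 4. Bcl2l1 +5.7 kb peaked in C5, above C4 in 4 of 4 by 0.66 and above C7 in 4 of 4 by 0.35. In N+P, Acoxl +89.1 kb was lower in C5 than in C1 in 3 of 3 by -0.30, and Bcl2l1 +43.9 kb was higher in 2 of 3.

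**Figure D5:**
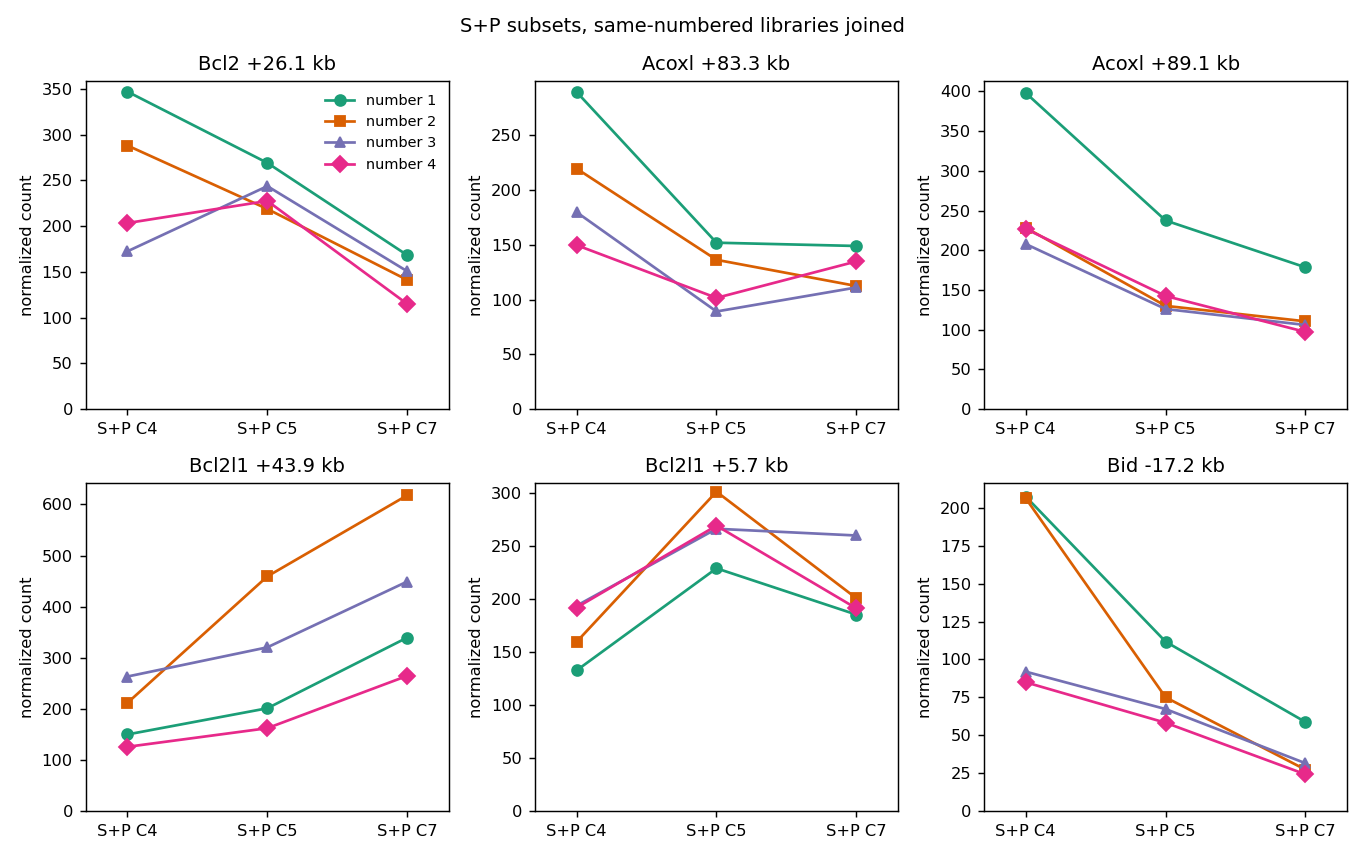
Normalized counts (vertical axes, linear from 0) of 6 peaks in the 3 S+P subsets (horizontal axes), with 1 line joining the libraries of each of the 4 replicate numbers. All 4 lines climbed from C4 to C7 at Bcl2l1 +43.9 kb and declined at each step at Acoxl +89.1 kb and Bid -17.2 kb, and number 1 lay above the others at Acoxl +89.1 kb.

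The groups were also ordered by level at the 7 called peaks, and the fitted differences of neighbours are given as a description, since the pairs were picked by sorting the same values. For Bcl2l1 +43.9 kb the order was S+P C7, S+P C5, Sensitized, S+P C4, Naive, N+P C5, N+P C1, and among neighbours only S+P C4 against Naive passed the adjusted p (2.61 ± 0.54, adjusted p = 2.04e-05). For Acoxl +89.1 kb the order was Naive, N+P C1, N+P C5, Sensitized, S+P C4, S+P C5, S+P C7, and among neighbours only S+P C4 against S+P C5 passed (0.70 ± 0.25, adjusted p = 0.0494). Without the libraries that stood apart, S+P C5 differed from S+P C4 there by -0.45 (adjusted p = 0.177). For Bcl2 +26.1 kb the neighbours N+P C5 against S+P C4 (0.51 ± 0.20, adjusted p = 0.034) and S+P C5 against S+P C7 (0.75 ± 0.19, adjusted p = 0.00413) passed. For Bid -17.2 kb the order was Naive, N+P C1, N+P C5, S+P C4, Sensitized, S+P C5, S+P C7, and 3 of the 6 neighbouring pairs passed, N+P C5 against S+P C4 (0.79 ± 0.35, adjusted p = 0.0572), Sensitized against S+P C5 (0.89 ± 0.32, adjusted p = 0.031) and S+P C5 against S+P C7 (1.14 ± 0.35, adjusted p = 0.0238). Of these, Sensitized against S+P C5 did not pass without the libraries that stood apart, as given above. For Acoxl +83.3 kb 1 pair passed, Sensitized against S+P C7 (0.67 ± 0.23, adjusted p = 0.0138), but S+P C7 differed from Sensitized by -0.30 (adjusted p = 0.384) without the libraries that stood apart. For Bcl2 +198.6 kb and Bcl2l1 +5.7 kb none passed.

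The peaks whose log2 levels followed 2 of these regions most closely were found by Pearson's r over the 25 libraries, as a description, since all peaks share libraries and depth. For Bcl2 +26.1 kb they were an intronic peak of Slc37a3 (r = 0.975), intergenic peaks nearest to Rlf (0.964), Cog6 (0.962) and Mcm3 (0.957), and an intronic peak of Lpp (0.957). For Acoxl +89.1 kb they were nearest to Ap1ar (0.976), Ctnnb1 (0.973), Sla2 (0.972), Pik3ip1 (0.971) and Fbxl14 (0.970). Few or none of these peaks remained among the most similar with Spearman's rho, as given in the closing section.

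The wider death machinery was read from lists of genes outside the 10. Of 18 other BCL2 family genes, 9 had a peak, 11 peaks in all, and every call fell on 4 of them, around Bcl2l14 and in Bcl2l15. In S+P C5 against N+P C5, 3 were higher (10.3% of all peaks) and 1 lower (6.97%), with a list median of 0.24 beside 0.00 over all peaks. An intergenic peak 94152 bp from the start of Bcl2l14 differed by 4.11 ± 0.45 (adjusted p = 4.56e-18), a second, in an intron of Etv6 and 175748 bp from the Bcl2l14 start, by 3.26 ± 0.45 (adjusted p = 2.21e-11), and a peak inside Bcl2l15 whose nearest start is that of Ptpn22 by 1.55 ± 0.23 (adjusted p = 4.23e-10). In S+P C7 against Sensitized, 3 of the 11 were again higher and 1 lower, or 36.4% called beside 11.9% of all peaks. Calls were also made in Sensitized against Naive (18.2% of the 11, beside 8.62%), S+P C5 against Sensitized (27.3%, beside 6.74%), S+P C5 against S+P C4 (18.2%, beside 5.12%) and the interaction (27.3%, beside 5.97%), and there were 0 in the other 5 comparisons. The lower peak of the former comparison, at an internal Bcl2l14 promoter, differed by -1.14 ± 0.28 (adjusted p = 0.000268).

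Caspases and their partners (17 peaks at 15 of 17 genes) gave no call in any of the 11 comparisons by DESeq2 or edgeR, beside 0.0% to 17.2% of all peaks, with 0 to 10 peaks at an unadjusted p below 0.05. Caspase inhibitors (3 peaks at 3 of 5 genes) gave none either, with 0 to 2 such peaks. Of 25 peaks at 10 of 11 regulators of the family, calls fell on 1 peak each of Stat5b, Fbxw7 and Foxo1. The share called was 8.0% in Sensitized against Naive (8.62% of all peaks), 4.0% in S+P C5 against Sensitized (6.74%), 4.0% in S+P C7 against Sensitized (11.9%) and 8.0% in the interaction (5.97%), and 0 in the other comparisons. In N+P C1 and N+P C5 against Naive, DESeq2's filter left only part of these lists tested. That left 9 and 8 peaks of the caspase list, 2 and 1 of the other BCL2 family genes, and 8 and 7 of the regulators. Fbxw7, whose product marks MCL1 for degradation, had an intronic peak higher in Sensitized than in Naive by 1.11 ± 0.34 (adjusted p = 0.00909) and lower in S+P C5 than in Sensitized by -1.22 ± 0.31 (adjusted p = 0.00129). Both Fbxw7 contrasts used the same Sensitized libraries, so their opposite signs are not independent. A distal peak nearest to Foxo1, an activator of Bcl2l11, was lower in S+P C7 than in Sensitized by -1.06 ± 0.21 (adjusted p = 9.26e-06). For the peaks of the gene lists, no value without the libraries that stood apart is given.

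Length, base composition and motifs had not entered the choice of the peaks. The 16 off promoters had a median length of 758.5 bp and 50.8% GC, beside 798 bp and 48.1% over all peaks off promoters, and the 8 promoter peaks had 1512 bp and 61.1%, beside 1118 bp and 59.3%. In the central 300 bases, 6 of the 16 held RUNX letters, 5 NFAT, 5 STAT and 2 AP-1 (TGANTCA, in 15.9% of all peaks off promoters), and none held FOXO letters (TGTTTAC, in 5.12%).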

How the data were processed

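ATAC-seq reads were trimmed with cutadapt 3.4, aligned to GRCm39 with Bowtie2 2.2.9 and cleared of multimapping reads and PCR duplicates (Bamtools, Picard 2.21.8). Peaks were called per library with Genrich 0.6.1 in its ATAC mode, which works on cut sites, made reproducible per group with ChIP-R and merged with bedtools 2.27.1. The deposited values are raw counts per merged peak made by the authors with deepTools, and pooling over groups means that a site open in 1 group was counted in all. The deposited peak lists of each group also carry a ChIP-R score, a signal and a p-value computed by the authors, of which only the positions were used here. From the counts, DESeq2 1.42.0 (Wald test, median-of-ratios size factors, group as the single term, independent filter at 0.1) was fitted to all libraries and edgeR 4.0.16 (quasi-likelihood) served as the alternative. Scripts were tested on simulated data. By the rule for named genes, the 7 peaks called in at least 1 comparison are given per library and promoter peaks by range. The peaks not called (Bcl2 +66.8 kb, the Bcl2l11 promoter, Bbc3 -8.6 kb) that are also given per library, and the examples of other member peaks, were chosen after their values were seen. Members and gene lists were chosen with earlier results of these data known. Libraries were never duplicates (lowest chi-square per degree of freedom 2.81). The count table gives the subsets of N+P and of S+P shared replicate numbers, and the sources used here do not state that a number marks 1 animal. The number within N+P and within S+P was used as a block in an alternative, which pairs no library with Naive or Sensitized, since deviations of same-numbered libraries correlated above 0.1 in every pair of the subsets compared, at 0.108 to 0.400 (N+P), 0.103 to 0.572 (S+P C4 and C5) and 0.522 to 0.771 (C5 and C7). For C4 and C7, which were not compared, the range was 0.0639 to 0.666. Libraries of different numbers correlated at -0.334 to 0.0270 (N+P), -0.685 to 0.440 (S+P C4 and C5) and -0.4825 to 0.137 (C5 and C7). For C4 and C5 the ranges of same and different numbers therefore overlapped.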

Additional observations from a re-analysis of the deposited data

Results flagged for a closer look

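In groups of 4 libraries, 6 values lay far from the other 3 of their group, where about 4.8 of the 96 groups examined would be marked by chance. At Acoxl +89.1 kb replicate 1 was the highest in S+P C4 (398, others 208 to 228), S+P C5 (238, others 126 to 143) and S+P C7 (179, others 97.3 to 111). These 3 libraries share a replicate number and include the shallowest and the deepest of the series, whose part in the values was not tested. Bcl2 +66.8 kb was high in S+P C5 replicate 1 (387, others 340.3 to 346). Bbc3 +5.8 kb was low in Sensitized replicate 2 (227, others 282 to 286). Pmaip1 +12.8 kb was high in S+P C7 replicate 4 (828, others 598 to 625).

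The change from Sensitized to S+P C5 differed from the change from Naive to N+P C5 at 4 peaks by DESeq2's interaction test with adjusted p below 0.1. The differences were -0.96 at Bcl2 +198.6 kb (adjusted p = 0.0215), -0.65 at Bcl2 +101.5 kb (adjusted p = 0.0401), 0.34 at the Bcl2l1 promoter (adjusted p = 0.0421) and 0.89 at Bbc3 -8.6 kb (adjusted p = 0.00185). Bcl2 +101.5 kb was admitted through the Sensitized list alone and Bbc3 -8.6 kb through the S+P C5 list alone, so these 2 values are descriptions. Without the libraries that stood apart, 3 of the 4 passed again. Over all peaks 31.2% passed the same adjusted p.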

How the results depend on the processing

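The counts of called peaks kept within 1.5 times of the reported value under most alternatives, and no called difference changed sign. For S+P C5 against Sensitized (0 called), loess offsets, the replicate block and a fit of the 2 groups alone each gave 2, namely Acoxl +89.1 kb and Bid -17.2 kb, and leaving out single libraries gave 0 to 3 (3 without S+P C5 replicate 1, 2 without Sensitized replicate 1 or 2). For S+P C7 against Sensitized (4), 2 remained called without the libraries that stood apart. For S+P C5 against S+P C4 (0), loess offsets gave 1, and leaving out single libraries gave 0 to 3 (3 without replicate 1 of C5, 2 and 1 without replicates 4 and 3 of C4). For S+P C7 against S+P C5 (1), leaving out single libraries gave 0 to 1. For the interaction (1), total counts as size factors, edgeR and leaving out the libraries that stood apart each gave 2, and leaving out single libraries gave 0 to 2. The replicate block, which pairs no library with Sensitized, changed no other call. Of the alternatives for single called peaks, 237 left the call as it was and 15 lost it. The cause of these changes was not tested.

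Over all peaks, the counts behind the background shares ranged over the alternatives from 0 to 233 for N+P C1 against Naive (1 as reported), from 0 to 221 for N+P C5 against Naive (1), from 0 to 47 for N+P C5 against N+P C1 (0), from 905 to 2054 for Sensitized against Naive (1166), from 40 to 267 for S+P C4 against Sensitized (116), from 457 to 1257 for S+P C5 against Sensitized (912), from 951 to 1966 for S+P C7 against Sensitized (1605), from 176 to 605 for S+P C7 against S+P C5 (322) and from 395 to 1623 for the interaction (807). No scaling moved the median of all peaks by as much as 0.1 on the log2 scale. With Spearman's rho in place of Pearson's r, 1 of the 5 most similar peaks was shared for Bcl2 +26.1 kb and 0 of 5 for Acoxl +89.1 kb. Nearest genes are positions only, and 3 or 4 libraries per group limit every comparison.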
